A study of Mus musculus with 42 samples.

Results

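The DNA replication and G1/S genes comprised 43 of the 22186 genes in the expression table. They were chosen by symbol from the known machinery that licenses, starts and carries out DNA synthesis. The rule used no measured value, although the genes were picked with earlier results of these data known. All 43 had values in every library. They were followed across 42 mouse RNA-seq libraries in 14 groups of 3, in which cells were exposed either to bisphenol S (BPS), an industrial bisphenol with estrogen-like activity, or to the ethanol vehicle (labelled Control).

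In the dose series, induced pluripotent stem cells (iPSCs) received vehicle, 1 µM, 50 µM or 100 µM BPS for 24 h and were collected after a further 24 h without it. In the comparison of cell types, Sertoli cells, the supporting cells of the testis, and granulosa cells, the supporting cells of the ovarian follicle, received vehicle or 1 µM BPS on the same schedule. Primordial germ cell-like cells (PGCLCs), made from the iPSCs in culture as a model of the embryonic germline, were exposed directly to 1 µM BPS or vehicle for 24 h, kept a further 8 h without it, and sorted for the surface proteins FUT4 and ITGB3. A second iPSC experiment compared vehicle with 1 µM BPS, and PGCLCs were derived afterwards from the exposed and unexposed cells without further exposure, through 2 days as epiblast-like cells and 4 days as PGCLC aggregates. The iPSCs were a single line from the fibroblasts of 1 mid-gestation male fetus, carrying an inducible reprogramming cassette, so all iPSC and PGCLC libraries shared 1 genetic background. Sertoli and granulosa cells were primary cultures, from male and female mice respectively, each pooled from about 5 littermates at postnatal day 20 and split over flasks. Replicate flasks of these 2 cell types therefore shared their animals. The iPSC replicates were separate flasks of the line and the directly exposed PGCLC replicates separate batches of plates, and nothing in the labels or methods says whether flasks were grown independently before exposure. The p-values accordingly measured the spread between these libraries, which may be technical.

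Before a cell copies its genome, the origin recognition complex with CDC6 and CDT1 loads the MCM2-7 helicase onto chromatin in G1 phase. Cyclin E with its kinase partner and the transcription factor E2F1 then drive entry into S phase, where CDC45 and the GINS complex activate the helicase and the polymerases, the sliding clamp PCNA and its RFC loader extend the new strands. RNA from many of these genes rises around the G1/S transition, so their level in a culture is widely read as a sign of how many of its cells are dividing. In RNA from whole cultures, fewer cells in S phase and less RNA per cell cannot be told apart.

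Many replication genes carry E2F-type sites near their start, so the listed promoters were searched on both strands for the letters TTTCCCGC, TTTCGCGC, TTTGCCGC and TTTGGCGC. Each window ran from 250 bases before to 50 bases after a RefSeq transcription start on GRCm38.p6, and 35 of the 43 genes had at least 1 listed window. Windows on 1 chromosome, which holds none of the 43 genes, were left out of the search and of all counts below. A match was found for 12 of the 35 genes (34.3%), against 620 of the 15826 genes of the expression table with a window (3.92%) and 704 of all 27025 genes with a window (2.6%). Among 38 other replication genes with a window, followed further below, 17 had a match (44.7%). The match was therefore not particular to the chosen genes. The 12 genes were Orc1, Cdc6, Cdt1, Mcm3, Mcm5, Mcm6, Mcm7, Gins3, Pola1, Pold1, Rfc3 and Lig1. For the licensing gene Orc1 and the helicase genes Mcm5, Mcm6 and Mcm7, whose RNA changed with BPS, the 250 bases before the start are shown 5′ to 3′ in the direction of transcription, with matches in capitals. They lie at chr4:108579204-108579453 (+ strand), chr8:75109259-75109508 (+ strand), chr1:128359706-128359955 (- strand) and chr5:138171884-138172133 (- strand), directly upstream of each gene's first exon in RefSeq. In Mcm5 and Mcm6, a match on 1 strand overlapped a match on the other. The match is a description of these letters, and the lack of one says only that they were not in this window.
Orc1: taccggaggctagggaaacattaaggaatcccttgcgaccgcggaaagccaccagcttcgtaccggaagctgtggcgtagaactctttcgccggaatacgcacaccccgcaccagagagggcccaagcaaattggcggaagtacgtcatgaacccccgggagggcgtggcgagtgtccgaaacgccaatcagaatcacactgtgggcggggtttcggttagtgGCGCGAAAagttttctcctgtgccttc
Mcm5: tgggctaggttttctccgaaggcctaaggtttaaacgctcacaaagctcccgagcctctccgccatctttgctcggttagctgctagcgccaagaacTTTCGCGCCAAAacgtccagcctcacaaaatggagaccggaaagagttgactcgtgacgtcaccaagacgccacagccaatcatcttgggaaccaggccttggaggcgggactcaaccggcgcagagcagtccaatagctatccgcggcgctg
Mcm6: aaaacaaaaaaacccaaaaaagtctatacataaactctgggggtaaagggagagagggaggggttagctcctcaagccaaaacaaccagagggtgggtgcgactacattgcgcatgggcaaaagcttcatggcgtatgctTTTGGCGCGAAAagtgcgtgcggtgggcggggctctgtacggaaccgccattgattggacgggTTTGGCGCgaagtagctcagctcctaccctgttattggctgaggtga
Mcm7: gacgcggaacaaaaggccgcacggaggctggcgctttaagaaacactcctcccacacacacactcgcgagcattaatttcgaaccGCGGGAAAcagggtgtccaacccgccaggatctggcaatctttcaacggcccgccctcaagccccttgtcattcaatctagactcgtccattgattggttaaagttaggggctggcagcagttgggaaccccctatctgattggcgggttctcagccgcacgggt

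Library depth ran from 26693847 to 44524376 assigned reads, and the smallest value of any of the 43 genes stood on 35 reads. The iPSC libraries carried the pluripotency markers Pou5f1, Nanog, Sox2, Zfp42 and Esrrb at 3606 to 3686 CPM (reads per gene scaled to library size) summed in the vehicle libraries, against 0.347 to 0.518 CPM in Sertoli cells. The summed Sertoli markers stood at 2825 to 2900 CPM in vehicle Sertoli cells and 427 to 452 CPM in granulosa cells, whereas the granulosa markers stood at 1525 to 1638 CPM in granulosa cells and 258 to 304 CPM in Sertoli cells. In Sertoli cells the markers Amh and Fshr were low, at means of 7.49 and 3.93 CPM. Both somatic cultures also carried markers of other cells. Stromal markers summed to 1194 to 1313 CPM in vehicle Sertoli cells and 4621 to 4958 CPM in vehicle granulosa cells, and Fshr, a receptor that marks both cell types, was below 0.5 CPM on average in vehicle granulosa cells. Values of Cdc45 are uncertain because the table holds a second entry for it that may split its reads. Exons of Ccne2, Orc1, Orc6, Mcm7, Cdc45, Gins2, Pole, Rfc2, Rfc4, Rfc5, Fen1, Lig1, Tk1, Chaf1a and Timeless overlap a gene on the opposite strand, and whether the counting used strand was not given in the sources used here.

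Libraries of the same group did not always agree. In the second iPSC experiment, BPS replicate 2 differed from the mean of its 2 fellow replicates by a median of 0.25 on the log2 scale over the 43 genes, the widest gap of all 42 libraries, with Ccne2 at 9.44 CPM against 16.3 and 17.8 CPM. In the dose series, 1 µM replicate 2 stood apart in a similar way, with Pcna at 547 CPM against 441 and 453 CPM and Pole at 116 CPM against 145 and 142 CPM. In both libraries short transcripts were high and long ones low relative to the fellow replicates: across the 43 genes, which are not independent replicates, Spearman's rho between the deviation and merged exon length was -0.72 and -0.66. The trend was not confined to them. In the second experiment vehicle replicate 3 had a rho of -0.62 and vehicle replicate 1 of 0.54, with smaller median gaps of 0.04 and 0.03. The first 50 µM library was higher than the mean of the other 2 for all 43 genes, by 0.03 to 0.27. Calls against vehicle and differences between responses that rest on these libraries are given with and without them. The direct dose tests are also given without 1 µM replicate 2, but were not run without the first 50 µM library.

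In vehicle cells, replication genes were far higher in the pluripotent and germline cultures than in the somatic ones. Levels of different genes were compared as CPM per kb of merged exons. In iPSCs the 3 highest were Pcna, the sliding clamp, at 335 ± 7.37 (SD, n = 3), the helicase subunit Mcm5 at 215 ± 2.86, and Rrm2, the S-phase subunit of ribonucleotide reductase, at 199 ± 2.67 CPM per kb. Mcm5 and Rrm2 were separated by more than their spread, and Pcna stood well above both. The 3 lowest in iPSCs were Gins3 at 8.53 ± 0.17, the second cyclin E gene Ccne2 at 5.31 ± 0.21, and Cdc45 at 3.51 ± 0.22 CPM per kb. The order at the top depended on the division by length. In CPM alone, the 3 highest in iPSCs were Mcm5 at 744, Mcm3 at 596 and Mcm2 at 572 CPM.

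Sertoli cells had another leading gene. Rrm1, the large subunit of ribonucleotide reductase, reached 131 ± 3.33 CPM per kb there, followed by Pcna at 68.6 ± 3.29 and Rrm2 at 52.9 ± 1.58 CPM per kb, while Orc1 at 2.31 ± 0.04, Gins3 at 2.27 ± 0.18 and Cdc45 at 0.87 ± 0.26 were lowest. Orc1 and Gins3 did not differ beyond their spread in Sertoli cells. Granulosa cells had Pcna at 75 ± 3.66, Rrm1 at 61.1 ± 1.90 and Rrm2 at 46.1 ± 1.78 CPM per kb at the top. In CPM alone, Rrm1 led in granulosa cells as well, at 244 CPM. The lowest in granulosa cells, Gins3, Orc1 and Cdc45, lay at 1.86 ± 0.24, 1.73 ± 0.13 and 1.16 ± 0.14 CPM per kb, and Gins3 and Orc1 again overlapped. In PGCLCs the order at the top was Pcna at 271 ± 7.08, Rrm2 at 245 ± 1.77 and Mcm5 at 214 ± 2.21 CPM per kb.

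**Figure D1:**
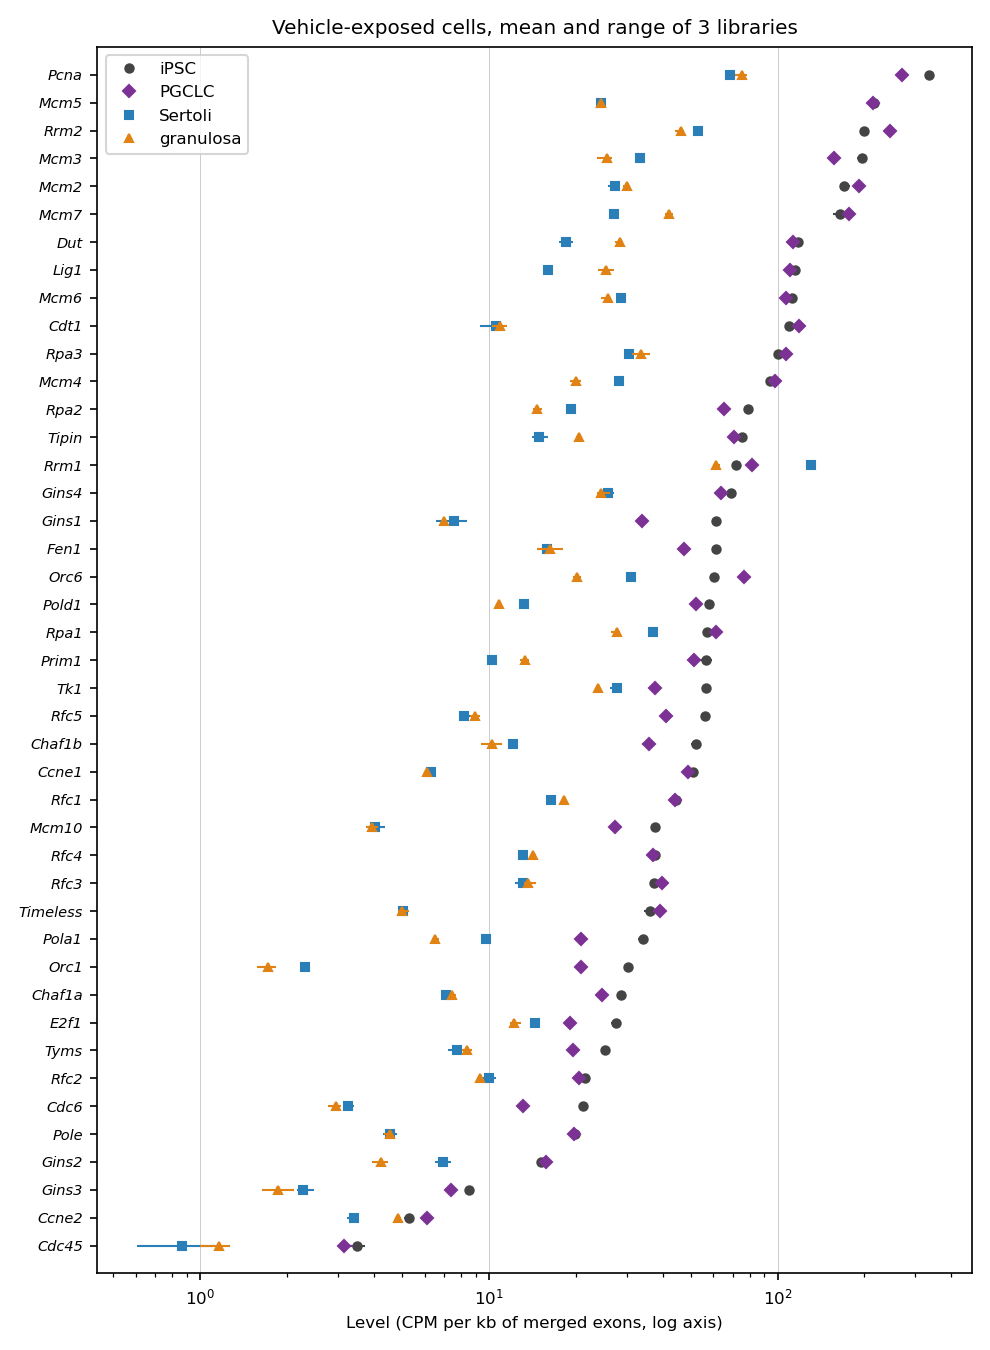
Level of each of the 43 genes in vehicle-exposed iPSCs, PGCLCs, Sertoli cells and granulosa cells, as CPM per kb of merged exons on a log axis, with the mean as a symbol and the range of 3 libraries as a line, genes ordered by the iPSC mean. Rrm1 is the 1 gene whose Sertoli symbol lies to the right of its iPSC symbol, at 131 against 71.8 CPM per kb.

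Compared with iPSCs, Sertoli cells had lower RNA of 42 of the 43 genes, where 45.3% of all genes tested were lower, and higher RNA of Rrm1 alone, where 44.6% of all genes were higher (moderated limma test, adjusted p of 0.05 or less). The median difference of the 43 genes was -2.03 on the log2 scale, a ratio of 0.245, against -0.02 over all genes. Orc1, the largest subunit of the origin recognition complex, showed the widest gap, with 93.9, 89.9 and 90.6 CPM in the iPSC libraries and 6.83, 7.08 and 7.01 CPM in the Sertoli libraries. The groups were far apart, and the difference was -3.71 ± 0.06 (SE, adjusted p = 3.26e-17). Rrm1 went the other way, with 296, 283 and 282 CPM in iPSCs and 535, 524 and 508 CPM in Sertoli cells, a difference of 0.86 ± 0.03 (SE, adjusted p = 4.98e-13). The single-strand DNA binding subunit Rpa1, at -0.63, and Ccne2, at -0.64, were the least reduced.

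Granulosa cells were lower than iPSCs for all 43 genes, against 45.3% of all genes lower and 43.8% higher, with a median of -2.11 (a ratio of 0.232) against -0.02 over all genes. The range ran from -4.13 for Orc1 to -0.13 for Ccne2. When the libraries were rescaled by their upper quartile, the all-gene median of the Sertoli comparison moved from -0.02 to -0.14 and the members' median from -2.03 to -2.14, with the same 1 and 42 calls. Between the somatic cultures the genes split, with 14 higher and 18 lower in granulosa cells than in Sertoli cells (17 and 16 after upper-quartile rescaling), against 36.9% and 34.7% of all genes, and a median of -0.03 against 0.02 over all genes. Rrm1 was the most reduced in granulosa cells, at -1.10 ± 0.03 (SE, adjusted p = 1.24e-13), and Lig1, the ligase that joins Okazaki fragments, the most raised, at 0.67 ± 0.04 (SE, adjusted p = 1.83e-09). Cell type, culture medium and experiment cannot be told apart in these comparisons.

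Vehicle PGCLCs differed from iPSCs in both directions, with 8 genes higher and 18 lower (14 and 16 after upper-quartile rescaling), against 38.4% and 37.8% of all genes, and a median of -0.07 against 0.00. Gins1, a subunit of the helicase-activating GINS complex, was the most reduced at -0.85 ± 0.07 (SE, adjusted p = 5.04e-08). Orc6, the smallest origin recognition subunit, was the most raised at 0.35 ± 0.03 (SE, adjusted p = 6.37e-08), and Rrm2 rose by 0.30 (adjusted p = 2.74e-07). In the second experiment, PGCLCs derived from vehicle iPSCs had 36 genes lower and 1 higher than those iPSCs (32 and 2 after upper-quartile rescaling), against 40.1% and 34.9% of all genes, with a median of -0.32, a ratio of 0.800, against -0.05. The clamp loader subunit Rfc4 was the 1 gene raised, at 0.39 ± 0.07 (SE, adjusted p = 0.000612), and Chaf1b of the histone chaperone CAF-1 the most reduced, at -1.10 ± 0.07 (SE, adjusted p = 1.16e-06).

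Summed over the 43 genes, the level was 8884 ± 214 CPM (SD, n = 3) in vehicle iPSCs of the dose series, 8270 ± 128 at 1 µM, 7993 ± 433 at 50 µM and 7717 ± 50.1 at 100 µM. The 3 vehicle libraries lay above all 9 exposed libraries. Sertoli cells had 2486 ± 55.3 CPM in vehicle and a higher 2761 ± 75.6 CPM with 1 µM BPS, and the groups did not overlap. Granulosa cells had 2151 ± 62.5 and 2177 ± 43.2 CPM, with overlapping libraries. Directly exposed PGCLCs had 8462 ± 105 and a lower 8109 ± 47.0 CPM without overlap, whereas the second iPSC experiment (9620 ± 80.5 and 9337 ± 255 CPM) and the derived PGCLCs (7466 ± 291 and 6988 ± 209.7 CPM) overlapped.

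**Figure D2:**
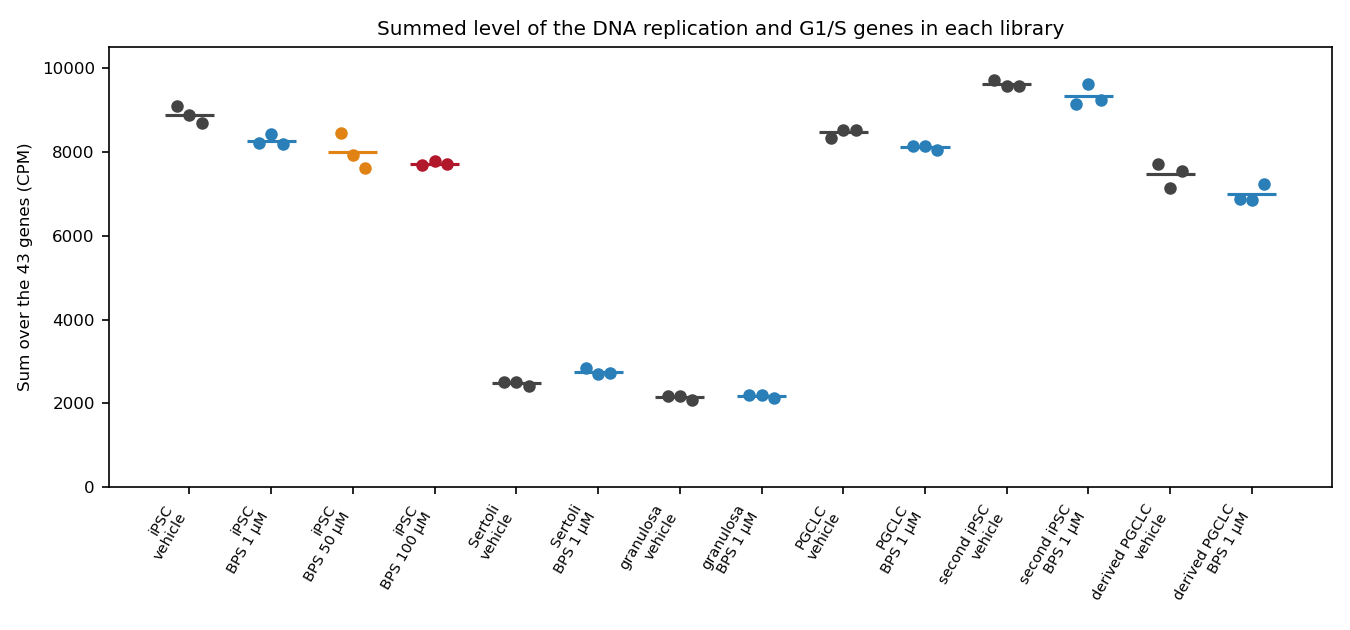
Summed level of the 43 genes in each of the 42 libraries, in CPM, with 1 point per library and a bar at the mean of each group of 3. The iPSC dose series has means from 8884 CPM in vehicle to 7717 CPM at 100 µM, and Sertoli cells of 2486 CPM in vehicle and 2761 CPM with BPS.

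In the iPSC dose series, the replication genes called were all lower with BPS. The licensing gene Orc1, the cyclin E gene Ccne1 and the nucleotide supply gene Rrm2 were called at each dose. At 1 µM, 3 of the 43 genes were lower and none higher, against 2.94% of all genes lower. At 50 µM, 14 were lower and none higher, against 13.3% of all genes lower, and at 100 µM 27 were lower and none higher, against 15.4% lower. The median change was -0.09, -0.13 and -0.17 on the log2 scale at the 3 doses, against -0.01, -0.00 and -0.00 over all genes. The median at 100 µM corresponded to a fall of 11.3% in RNA level. The 3 comparisons share the same vehicle libraries and are given side by side.

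Cyclin E gave the clearest response among the regulators. Ccne1 was at 104, 104 and 97.4 CPM in the vehicle libraries, 86.7, 90.8 and 83.1 at 1 µM, 82.2, 79 and 71.9 at 50 µM and 77.3, 74.6 and 71.3 at 100 µM. Every exposed library lay below every vehicle library, and the change was -0.23 ± 0.06 (SE, adjusted p = 0.016), -0.39 ± 0.06 (SE, adjusted p = 6.84e-05) and -0.45 ± 0.06 (SE, adjusted p = 1.49e-05) at the 3 doses. Ccne2 was called at 100 µM only, at -0.22 ± 0.08 (SE, adjusted p = 0.0342), with -0.21 (adjusted p = 0.0508) at 50 µM. E2f1 stood at 87.5, 89.96 and 83.7 CPM in vehicle and 79.2, 87.4 and 85.2 CPM at 100 µM, overlapping groups with a difference of -0.05 ± 0.05 (SE, adjusted p = 0.45).

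Of the origin licensing genes, Orc1 and Cdc6 fell while Orc6 and Cdt1 were not called. Orc1 was at 93.9, 89.9 and 90.6 CPM in vehicle, 77.1, 85.5 and 78.3 at 1 µM, 80.1, 77.3 and 74.6 at 50 µM and 80.9, 79.4 and 77.9 at 100 µM. All 9 exposed libraries lay below the vehicle libraries, the 3 doses overlapped one another, and the changes were -0.19 ± 0.05 (SE, adjusted p = 0.0251), -0.24 ± 0.05 (SE, adjusted p = 0.0017) and -0.20 ± 0.05 (SE, adjusted p = 0.00505). Cdc6 reached -0.26 ± 0.06 (SE, adjusted p = 0.00423) at 100 µM, whereas Cdt1 had -0.10 (adjusted p = 0.102) and Orc6 -0.04 (adjusted p = 0.657).

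The MCM2-7 helicase fell almost as a unit at 100 µM, with 5 of its 6 subunits called, and 4 of the 6 called at 50 µM. Mcm5 was at 755, 735 and 741 CPM in vehicle, 676, 679.7 and 668 at 1 µM, 685, 640.1 and 603 at 50 µM and 588, 611 and 599 at 100 µM. Vehicle libraries were highest throughout, and Mcm5 changed by -0.14 (adjusted p = 0.0985), -0.21 (adjusted p = 0.00536) and -0.31 (adjusted p = 0.000216). Mcm2 was at 599.6, 563 and 553 CPM in vehicle and 456, 479 and 460.2 CPM at 100 µM, a change of -0.30 ± 0.06 (SE, adjusted p = 0.00069). Mcm3, Mcm6 and Mcm7 changed by -0.22, -0.21 and -0.21, and the uncalled subunit Mcm4 by -0.11 (adjusted p = 0.11). Of the genes that activate the helicase, Gins1 at -0.27 (adjusted p = 0.00735) and Gins4 at -0.16 (adjusted p = 0.0374) fell at 100 µM, and Mcm10, Cdc45, Gins2 and Gins3 were not called, with changes between -0.13 and -0.00.

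At the fork itself, the clamp loader had the widest change of all 43 genes. Rfc4 was at 50.3, 50.3 and 46.7 CPM in vehicle, 39.2, 46.3 and 42.9 at 1 µM, 43.1, 40.4 and 39.1 at 50 µM and 36.6, 33.2 and 36.4 at 100 µM. The vehicle libraries stayed above all exposed ones, and Rfc4 changed by -0.20 (adjusted p = 0.0603), -0.26 (adjusted p = 0.00533) and -0.47 (adjusted p = 3.43e-05). Of the other loader subunits, Rfc1, Rfc2 and Rfc5 fell at 100 µM, with changes of -0.23, -0.17 and -0.21 on the log2 scale, and Rfc3 was not called at -0.14 (adjusted p = 0.0655). Pcna fell at 100 µM, at -0.20 ± 0.07 (SE, adjusted p = 0.0357). Among the polymerases and primase, Pola1 (polymerase alpha) changed by -0.28 (adjusted p = 0.003) at 50 µM and -0.25 (adjusted p = 0.00613) at 100 µM, Prim1 (primase) by -0.19 (adjusted p = 0.0276) and Pold1 (polymerase delta) by -0.14 (adjusted p = 0.0467). Pole, the leading-strand polymerase, was not called, with 152, 149 and 141 CPM in vehicle and 142, 140.3 and 137 CPM at 100 µM.

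RPA, which coats single-stranded DNA, fell through 2 of its 3 subunits. Rpa2 was at 146, 143 and 139.8 CPM in vehicle and 113, 111 and 114 CPM at 100 µM, without overlap, a change of -0.35 ± 0.06 (SE, adjusted p = 0.00036), Rpa1 changed by -0.15 (adjusted p = 0.0248), and Rpa3 by -0.12 (adjusted p = 0.282). Both subunits of ribonucleotide reductase, which makes deoxynucleotides, fell. Rrm2 was at 442, 432 and 432 CPM in vehicle, 381, 371 and 374 at 1 µM, 374, 368 and 338 at 50 µM and 355, 356 and 361 at 100 µM. It was the gene with the smallest adjusted p at 1 µM, with -0.22 ± 0.05 (SE, adjusted p = 0.00854), -0.28 ± 0.05 (SE, adjusted p = 0.000379) and -0.29 ± 0.05 (SE, adjusted p = 0.00023) at the 3 doses. Rrm1 changed by -0.28 (adjusted p = 0.000915) and -0.30 (adjusted p = 0.000381) at 50 and 100 µM, and Tk1, thymidine kinase, by -0.14 (adjusted p = 0.0464) at 100 µM. Tyms and Dut, which supply thymidylate and remove dUTP, were not called, at -0.15 (adjusted p = 0.0516) and -0.07 (adjusted p = 0.339).

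The remaining groups were mixed. The fork protection partners Tipin and Timeless both fell at 100 µM, at -0.30 ± 0.06 (SE, adjusted p = 0.00103) and -0.17 ± 0.06 (SE, adjusted p = 0.0249). The flap nuclease Fen1 fell, at -0.21 (adjusted p = 0.00533), whereas Lig1 did not pass the test at -0.11 (adjusted p = 0.0996). Neither subunit gene of the histone chaperone CAF-1 was called at any dose, with Chaf1a at -0.10 (adjusted p = 0.148) and Chaf1b at -0.06 (adjusted p = 0.393) at 100 µM. At 100 µM the 3 exposed libraries lay below all 3 vehicle libraries for 36 of the 43 genes, against 25.7% of all genes, and all 43 fitted changes were below 0 (42 of 43 after upper-quartile rescaling, where 18 genes were called).

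**Figure D3:**
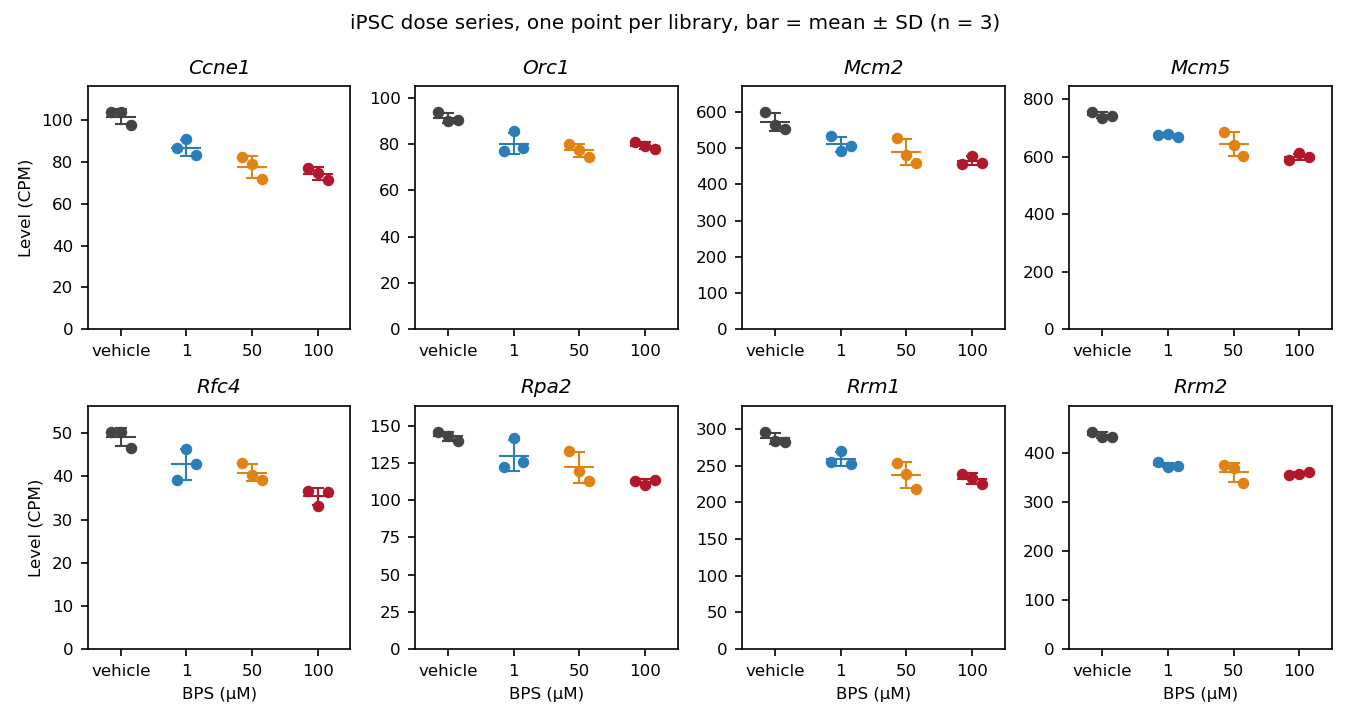
Level in CPM of 8 of the genes in each iPSC library of the dose series (vehicle, 1, 50 and 100 µM BPS), with bars at the mean ± SD of 3 libraries. The means of Ccne1 and Rfc4 are lower at each higher dose, while the exposed points of Orc1 overlap across the 3 doses.

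Doses were also compared directly. None of the 43 genes differed between 50 and 1 µM (0.00612% of all genes), between 100 and 1 µM (0.44%) or between 100 and 50 µM (0.055%) in the limma fit, and 4, 15 and 5 had an unadjusted p under 0.05. The share of all genes below that p is not given, so these counts have no baseline. The 2 smallest adjusted p-values were for Rfc4, at -0.27 (95% interval -0.41 to -0.14, adjusted p = 0.0669), and Ccne1, at -0.22 (95% interval -0.34 to -0.11, adjusted p = 0.0785), both between 100 and 1 µM. The intervals leave falls of up to 0.41 and 0.34 on the log2 scale possible. Without 1 µM replicate 2 none of the 43 was called between 50 and 1 µM or between 100 and 1 µM. The medians were then -0.02 and -0.08.

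The count at 1 µM depended on single libraries. It was 10 without 1 µM replicate 2 (Ccne1, Orc1, Gins1, Prim1, Pcna, Rfc4, Rpa2, Rrm1, Rrm2 and Tipin), among 2134 genes called in the whole table. It was 1 without 1 µM replicate 3 or vehicle replicate 2, among 645 and 675 genes, and 0 without vehicle replicate 1, among 602. Without 1 µM replicate 2, whose spread enters the shared error of the fit, 26 genes were called at 50 µM and 32 at 100 µM. Of the whole table, 5537 and 6169 genes were then called. Without the first 50 µM library, which stood above its fellows, 21 were lower at 50 µM with a median of -0.17, among 4233 genes called. Without vehicle replicate 1 the count at 100 µM was 17, among 3322 genes. Marker genes of other states moved with the dose series as well: the 8 primordial germ markers summed to 179 to 182 CPM in vehicle and 139 to 142 CPM at 100 µM (4 of 7 tested lower), and the 5 later germ markers to 13.6 to 14.4 and 18.6 to 18.9 CPM (2 of 4 tested higher), with Fut4 and Stra8 below 0.5 CPM. The 6 granulosa markers summed to 46.1 to 53.3 CPM in vehicle and 60.95 to 62.7 CPM at 100 µM (1 of 3 tested higher), the 7 Sertoli markers to 5.53 to 5.81 and 6.57 to 7.52 CPM (1 of 3 tested higher), and the 4 macrophage markers to 13.7 to 16.3 and 21.2 to 21.7 CPM (1 of 1 tested higher, Cd68, with Ptprc, Adgre1 and Csf1r below 0.5 CPM). Of the oocyte markers 2 were in the table, with sums of 10.7 to 10.9 and 7.35 to 8.43 CPM (1 of 1 tested lower, Zp3, with Gdf9 below 0.5 CPM). Pluripotency markers were not called at any dose (0 of 5). Their part in the result was not tested. Transcripts of ribosomal RNA type took 0.0468 to 0.220% of reads in vehicle and 0.0287 to 0.0466% at 100 µM, and 22 of the 43 genes were called at 100 µM with that share as a covariate.

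In Sertoli cells the replication genes called were all higher. With 1 µM BPS, 21 of the 43 genes were higher and none lower, against 3.76% of all genes higher. The median change was 0.17, a rise of 12.2%, against 0.01 over all genes, and all 43 fitted changes were above 0 (41 of 43 after upper-quartile rescaling, with 15 calls). For 34 genes the 3 exposed libraries lay above all 3 vehicle libraries, against 16% of all genes.

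The smallest adjusted p was for Lig1, at 56.7, 56.7 and 55.8 CPM in vehicle and 66.8, 66.3 and 65.2 CPM with BPS. The libraries within each group were nearly equal and the groups were apart, with a change of 0.23 ± 0.04 (SE, adjusted p = 0.00451). Pcna was at 103, 109.7 and 99.95 CPM in vehicle and 130.5, 124 and 116 CPM with BPS, a change of 0.25 ± 0.04 (SE, adjusted p = 0.00622). Rrm2 was at 119.8, 115 and 113 and 135, 129.7 and 134 CPM, a change of 0.19 ± 0.03 (SE, adjusted p = 0.00627). In each of these genes the lowest exposed library was above the highest vehicle library.

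By role, 5 of the 6 MCM2-7 subunits rose, by 0.14 (Mcm7) to 0.20 (Mcm2), and Mcm4 was not called at 0.11 (adjusted p = 0.114). Mcm2 was at 94.7, 94.3 and 87.2 CPM in vehicle and 109.9, 105 and 101 CPM with BPS, a change of 0.20 ± 0.04 (SE, adjusted p = 0.0134). In the clamp loader, Rfc3 and Rfc5 rose, by 0.28 (adjusted p = 0.0247) and 0.27 (adjusted p = 0.00924), and Rfc1, Rfc2 and Rfc4 were not called. Gins2 and Gins4 rose, by 0.27 (adjusted p = 0.0134) and 0.17 (adjusted p = 0.0486), as did Pola1 and Pold1, by 0.16 (adjusted p = 0.0355) and 0.17 (adjusted p = 0.0334). Of the nucleotide supply genes, Rrm2, Tk1 at 0.22 (adjusted p = 0.0155) and Dut at 0.21 (adjusted p = 0.0216) rose, and Rrm1, so abundant in these cells, had 0.09 (adjusted p = 0.086).

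E2f1 rose in Sertoli cells, from 47.1, 44.4 and 44.8 to 54.5, 51.4 and 50.4 CPM, a change of 0.20 ± 0.05 (SE, adjusted p = 0.0187). Neither cyclin E gene was called. Ccne1 was at 12.84, 11.92 and 13.01 CPM in vehicle and 12.46, 13.53 and 13.27 CPM with BPS, a change of 0.06 (adjusted p = 0.729). Ccne2 was at 11.2, 11.1 and 10.3 and 12.6, 11.8 and 11.4 CPM, without overlap, a change of 0.14 (adjusted p = 0.337). Orc1 was likewise not called, at 0.02 (adjusted p = 0.935). Orc6 at 0.16 (adjusted p = 0.0483), Rpa2 at 0.20 (adjusted p = 0.018), Chaf1a at 0.20 (adjusted p = 0.014) and Tipin at 0.25 (adjusted p = 0.0227) completed the list of genes that rose, with Mcm3, Mcm5 and Mcm6 named above among the MCM subunits.

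The size of this list rested on BPS replicate 1. Without it 1 gene, Lig1, was called, among 43 called in the whole table, while the median change of the replication genes was 0.15 and 42 of 43 were above 0. Leaving out BPS replicate 2 gave 11, among 238 genes of the whole table. Leaving out vehicle replicate 2 or 3 gave 9 or 7, among 186 or 291. Markers of other cells moved with BPS in these cultures: the 5 later germ markers summed to 34.7 to 37.2 CPM in vehicle and 25.3 to 30.1 CPM with BPS (1 of 5 lower, Dazl), the 6 stromal markers to 1194 to 1313 and 1052 to 1168 CPM (1 of 5 tested lower, Col1a1), the 6 granulosa markers to 258 to 304 and 209 to 265 CPM (2 of 5 tested lower, Amhr2 and Inha), the 8 primordial germ markers to 52.96 to 57.5 and 47.2 to 49.2 CPM (1 of 3 tested lower, Itgb3), and the 4 smooth muscle markers to 1101 to 1214 and 1089 to 1133 CPM (1 of 4 lower, Myh11). Of the primordial germ markers Prdm1, Prdm14, Tfap2c, Dppa3 and Nanos3 were below 0.5 CPM. Lum and Foxl2 were below 0.5 CPM. The 7 Sertoli markers summed to 2825 to 2900 and 2706 to 2902 CPM (0 of 7 called). Their part in the result was not tested.

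In granulosa cells none of the 43 genes was called by limma or by limma-voom, against 2.6% of all genes, and 6 had an unadjusted p under 0.05 by either. No share of all genes below that p is given beside this count. The median change was 0.03 against 0.02 over all genes. The smallest p was for Cdc6, at 0.18 (95% interval 0.05 to 0.31, adjusted p = 0.146), and next came Pcna, with 119, 115 and 108 CPM in vehicle and 122, 121 and 122 CPM with BPS. The groups of Pcna did not overlap, and the change was 0.09 (95% interval 0.02 to 0.16, adjusted p = 0.157). For 6 genes the exposed libraries lay above the vehicle libraries, against 14.1% of all genes. Lig1 and Rrm2, both raised in Sertoli cells, had changes of -0.01 (95% interval -0.10 to 0.07, adjusted p = 0.903) and -0.04 (95% interval -0.11 to 0.04, adjusted p = 0.678) in granulosa cells. Markers of other cells moved here too. The 4 smooth muscle markers summed to 2003 to 2060 CPM in vehicle and 2217 to 2339 CPM with BPS (1 of 4 higher, Acta2). The 8 primordial germ markers summed to 33.7 to 39.4 and 28.7 to 31.6 CPM (1 of 4 tested lower, Itgb3). Of these, Prdm1, Prdm14, Tfap2c and Dppa3 were below 0.5 CPM. The 6 granulosa markers summed to 1525 to 1638 and 1611 to 1706 CPM (0 of 6 called). Their part in the result was not tested.

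In directly exposed PGCLCs the replication genes called were mostly lower. With 1 µM BPS, 11 of the 43 were lower and 1 higher, against 11.3% of all genes lower and 15.4% higher, with a median of -0.04 against 0.02. Orc1, Mcm2, Mcm3, Mcm5, Mcm7 and Timeless were called lower both here and at 100 µM in iPSCs. Pole, the leading-strand polymerase, had the smallest adjusted p, at 146, 149 and 146 CPM in vehicle and 116, 118 and 118 CPM with BPS. The 3 libraries of each group were almost equal and far apart between groups, with a change of -0.33 ± 0.03 (SE, adjusted p = 2.62e-06). The other polymerase and primase genes were not called, with changes from -0.06 for Prim1 to 0.01 for Pold1.

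Cdt1 was at 258, 260.2 and 262 CPM in vehicle PGCLCs and 235, 219 and 229 CPM with BPS, a change of -0.19 ± 0.03 (SE, adjusted p = 0.000345). E2f1 was at 58.2, 60.4 and 61.9 and 53.6, 49.96 and 51.3 CPM, a change of -0.22 ± 0.04 (SE, adjusted p = 0.00103). Both were lower in every exposed library. The helicase again moved together, with Mcm2, Mcm3, Mcm4, Mcm5 and Mcm7 lower, with changes of -0.09 to -0.13, and Mcm6 not called at -0.04 (adjusted p = 0.249). Mcm7 changed by -0.13 ± 0.03 (SE, adjusted p = 0.00325), Mcm5 by -0.12 ± 0.03 (SE, adjusted p = 0.00362) and Mcm3 by -0.11 ± 0.03 (SE, adjusted p = 0.00852). Orc1 at -0.12 (adjusted p = 0.0289), Chaf1b at -0.13 (adjusted p = 0.0438) and Timeless at -0.12 (adjusted p = 0.00967) were the other genes lower.

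Gins3 was the 1 gene higher in exposed PGCLCs, at 20.2, 20.1 and 19.98 CPM in vehicle and 22.8, 22.7 and 23.3 CPM with BPS. All exposed libraries were above the vehicle libraries, with a change of 0.19 ± 0.05 (SE, adjusted p = 0.0118). Over all 6 PGCLC libraries the other GINS subunits were not called, at -0.04 (Gins1), 0.10 (Gins2) and 0.01 (Gins4). Ccne1, at 95.2, 96.8 and 101 and 101, 95.2 and 100.3 CPM, overlapped between groups, as did Rrm1. The calls fell to 7 without BPS replicate 3, where Gins3 was no longer among them, or without vehicle replicate 3. Of the whole table, 3181 and 3079 genes were then called. After upper-quartile rescaling the calls were 1 higher and 18 lower. Without BPS replicate 1 they were 4 higher and 10 lower, with Gins2, Rrm1 and Chaf1a added, among 5091 genes of the whole table. Pluripotency markers were lower in the same libraries, at a sum of 2301 to 2358 CPM in vehicle and 1809 to 2015 CPM with BPS (5 of 5 lower), as were primordial germ markers, at 275 to 283 and 233 to 265 CPM (4 of 8 lower), with no marker of either list below 0.5 CPM. Later germ markers summed to 16.7 to 18.5 CPM in vehicle and 13.1 to 14.8 CPM with BPS (1 of 5 lower, Dazl), stromal markers to 78.1 to 82.6 and 85.2 to 93.8 CPM (1 of 4 tested higher, Col1a1), Sertoli markers to 23.7 to 25.6 and 27.8 to 34.1 CPM (Gata4 higher and Dhh lower of 4 tested), and granulosa markers to 25.4 to 28.3 and 25.3 to 29.3 CPM (2 of 3 tested lower, Amhr2 and Inha). Dcn, Lum, Amh, Cldn11, Fshr and Foxl2 were below 0.5 CPM. Their part in the result was not tested.

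**Figure D4:**
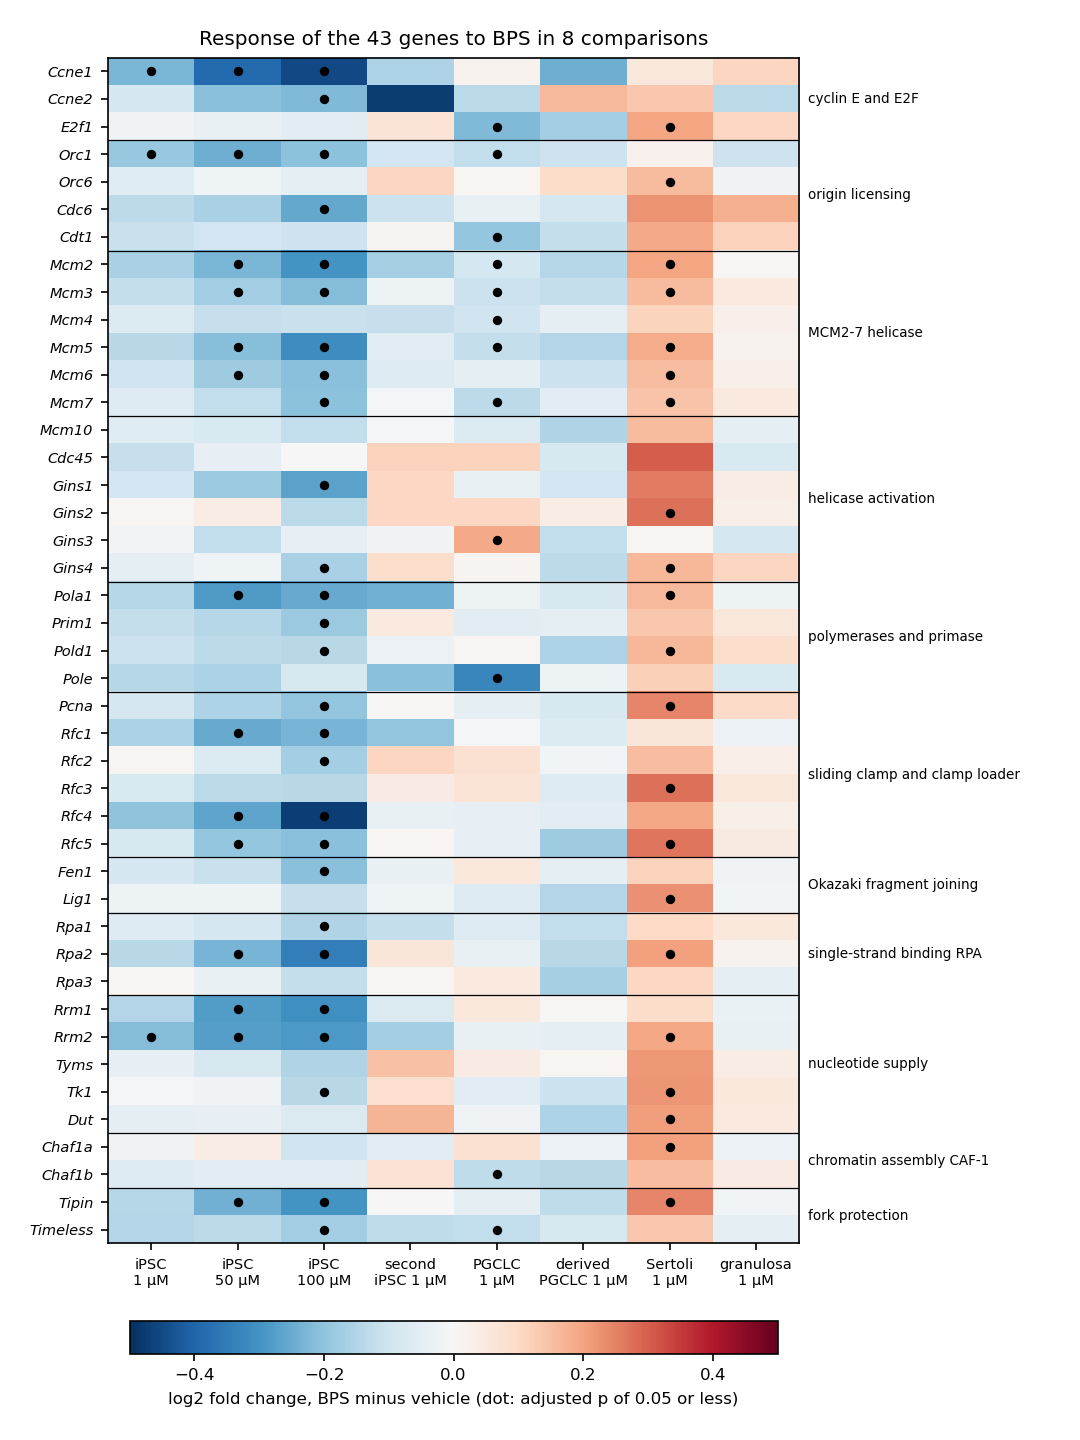
Change of each of the 43 genes (rows, ordered by role) with BPS in 8 comparisons (columns) as log2 fold change against vehicle, blue for lower and red for higher, with a dot where the adjusted p was 0.05 or less. The 3 iPSC dose columns carry 3, 14 and 27 dots, all on blue, the Sertoli column 21 dots, all on red, the PGCLC column 12 and the other 3 columns none.

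In the second iPSC experiment no replication gene was called at 1 µM by limma or limma-voom, where 2 genes of the whole table (0.0128%) were called by limma, and 3 had an unadjusted p under 0.05. Rrm2 was at 551, 538 and 541 CPM in vehicle and 489, 484 and 479 CPM with BPS. All 3 exposed libraries were below all vehicle libraries, and the change was -0.17 (95% interval -0.30 to -0.04, adjusted p = 0.395). Mcm2 was at 690.1, 684 and 678 and 613, 584 and 635 CPM, also without overlap, with -0.16 (95% interval -0.31 to -0.02, adjusted p = 0.426). Ccne1 was at 155, 149 and 157 and 127, 155 and 134 CPM, where BPS replicate 2 lay within the vehicle range. For 14 genes the exposed libraries were below all vehicle libraries, against 15.5% of all genes. For 2 they were above all of them, as for 1703 of all 15572 genes. The median change of the 43 genes was a fall of 1.23%. Without BPS replicate 2, 6 of the 43 genes were called, all lower (Ccne1, Mcm2, Rfc1, Rpa1, Rrm2 and Tipin), among 1484 genes of the whole table. With any other single library left out, no gene of the whole table was called. Without BPS replicate 1 the median of the 43 was 0.01, with 22 changes above 0 and 21 below.

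The PGCLCs derived from these iPSCs had no called replication gene either by limma, where no gene of the table was called (0% of all genes), or by limma-voom, and 11 and 13 of the 43 had an unadjusted p under 0.05. The median was -0.09 against 0.00 over all genes. Dut had the smallest p, at 226, 221 and 230.4 CPM in vehicle and 202, 196 and 209.9 CPM with BPS. The groups did not overlap, and the change was -0.16 (95% interval -0.25 to -0.06, adjusted p = 0.207). Exposed libraries lay below vehicle libraries for 13 genes, against 10.4% of all genes. Ccne1 varied widely among the vehicle libraries, at 125, 76 and 117 CPM, and gave -0.24 (95% interval -0.67 to 0.18, adjusted p = 0.53).

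Whether cell types responded differently to 1 µM BPS was tested as the difference of the 2 responses. Sertoli cells and iPSCs differed for 15 of the 43 genes, each with the higher change in Sertoli cells, against 4.2% of all genes in either direction, and the median difference was 0.26 against 0.00. Rrm2, lower in exposed iPSCs and higher in exposed Sertoli cells, gave the smallest p at 0.41 ± 0.05 (SE, adjusted p = 0.0023). Mcm5, at 0.32 ± 0.05 (SE, adjusted p = 0.00982), and Rfc5, at 0.35 ± 0.06 (SE, adjusted p = 0.00982), followed. The other 12 were Cdc6, Mcm2, Mcm3, Mcm6, Pola1, Pold1, Rfc1, Rfc4, Lig1, Rpa2, Rrm1 and Tipin. After upper-quartile rescaling 8 differed. Without iPSC 1 µM replicate 2 the count was 34, among 2713 genes of the whole table (752 with all libraries). Without Sertoli BPS replicate 1 it was 5 (Mcm2, Mcm5, Pola1, Rfc5 and Rrm2), among 258 genes.

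**Figure D5:**
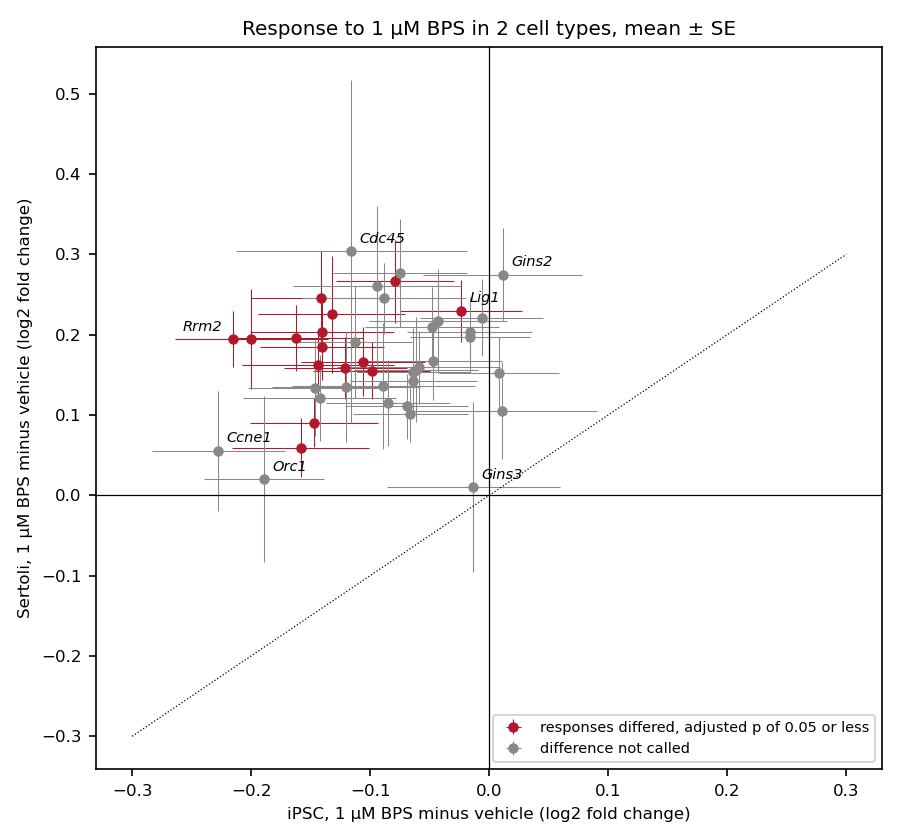
Change of each of the 43 genes with 1 µM BPS in iPSCs (horizontal) and in Sertoli cells (vertical) as log2 fold change ± SE, with the line of equal response dotted and the 15 genes whose responses differed in red. Rrm2 lies at -0.22 and 0.19, and Gins3 close to the dotted line.

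Granulosa cells and iPSCs differed in response for 2 genes, Ccne1 at 0.33 ± 0.06 (SE, adjusted p = 0.0254) and Cdc6 at 0.31 ± 0.06 (SE, adjusted p = 0.035), against 1.37% of all genes. Without iPSC 1 µM replicate 2 the count was 9, among 1497 genes of the whole table (246 with all libraries). PGCLCs and iPSCs differed for 4 genes, against 13.4% of all genes: Ccne1 at 0.24 (adjusted p = 0.0191), Rrm2 at 0.18 (adjusted p = 0.0239) and Rrm1 at 0.20 (adjusted p = 0.0336) had the higher change in PGCLCs, and E2f1 at -0.21 (adjusted p = 0.0335) the lower. Without iPSC 1 µM replicate 2 the PGCLC count was 11 higher and 2 lower, among 3769 genes of the whole table (2325 with all libraries). After upper-quartile rescaling the PGCLC count was 1. These comparisons share the iPSC libraries of the dose series, and cell type and experiment cannot be told apart in them. PGCLCs were also collected 8 h after exposure rather than 24 h, and were exposed as aggregates in plates rather than in flasks.

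The 2 somatic cultures differed for 3 genes, Rrm2 at 0.23 ± 0.05 (SE, adjusted p = 0.021), Lig1 at 0.24 ± 0.05 (SE, adjusted p = 0.0309) and Chaf1a at 0.23 ± 0.05 (SE, adjusted p = 0.0436), each higher in Sertoli cells, against 1.28% of all genes. Without Sertoli BPS replicate 1 none of the 43 differed, and 95 genes of the whole table did (215 with all libraries). The 2 iPSC experiments did not differ detectably in their response to 1 µM, with 0 of the 43 genes called by limma and 0 at an unadjusted p under 0.05, against 0% of all genes. The intervals were wide, as for Ccne2 at -0.39 (95% interval -0.93 to 0.16, adjusted p = 0.877). Without 1 µM replicate 2 of the dose series, or without BPS replicate 2 of the second experiment, still none of the 43 was called between the iPSC experiments. Derived PGCLCs and the iPSCs they came from differed for none of the 43 by limma (2 at an unadjusted p under 0.05), against 0.0058% of all genes. Without that BPS replicate 2 there was again none.

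The genes called at 100 µM in iPSCs and those called at 1 µM in Sertoli cells had 14 in common, 51.9% of the 27 and 66.7% of the 21. Unrelated lists of 27 and 21 out of the same 43 genes would share nearly as many, so the overlap is not read as a common core. These were Mcm2, Mcm3, Mcm5, Mcm6, Mcm7, Gins4, Pola1, Pold1, Pcna, Rfc5, Rpa2, Rrm2, Tk1 and Tipin, lower in the former and higher in the latter. The doses differ, and no test was made of this overlap. Mcm10, Cdc45, Rpa3 and Tyms were called in none of the 8 comparisons with BPS. The medians of the genes with and without an E2F-type match in a listed window were -0.21 (12 genes, 8 called) and -0.17 (23 genes, 14 called) at 100 µM in iPSCs, and 0.16 (8 called) and 0.19 (10 called) in Sertoli cells, differences that were not tested. Orc1, Mcm5, Mcm6 and Mcm7, whose upstream bases are shown above, were shown as genes whose RNA changed with BPS. Their calls at 100 µM therefore carry no information about the match. Ccne1 had no match in its listed windows.

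The wider replication machinery was followed through 46 other genes, none of them among the 43. In the iPSC dose series 7, 21 and 22 of the 46 were lower at 1, 50 and 100 µM and none higher, against 2.94%, 13.3% and 15.4% of all genes lower, with medians of -0.11, -0.15 and -0.14 against -0.01, -0.00 and -0.00. Tfdp1, the dimerization partner of E2F factors, changed by -0.23 ± 0.05 (SE, adjusted p = 0.00565), -0.32 ± 0.05 (SE, adjusted p = 0.000105) and -0.35 ± 0.05 (SE, adjusted p = 4.07e-05). At 100 µM Orc5 changed by -0.41 (adjusted p = 0.000105) and the polymerase delta subunit Pold2 by -0.30 (adjusted p = 0.000477). In Sertoli cells 10 were higher and none lower, against 3.76% of all genes higher, with a median of 0.13 against 0.01, led by cyclin A, Ccna2, at 0.26 ± 0.04 (SE, adjusted p = 0.00304) and the licensing inhibitor Gmnn at 0.24 (adjusted p = 0.00432). Directly exposed PGCLCs had 9 higher and 5 lower, or 19.6% and 10.9%, near the 15.4% and 11.3% of all genes, among them Ticrr, a helicase activation factor, at -0.34 (adjusted p = 7.39e-06) and Top1, topoisomerase I, at 0.24 (adjusted p = 8.97e-05). None of the 46 was called by limma or limma-voom in granulosa cells, the second iPSC experiment or the derived PGCLCs, where 5, 7 and 9 had an unadjusted p under 0.05 by limma and 5, 6 and 9 by limma-voom.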

How the data were processed

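Poly(A) RNA was sequenced in 42 libraries, 3 in each of 14 groups, with groups and replicate numbers taken from the labels. The authors aligned reads to mm10 and counted them per gene with Rsubread, then scaled them with edgeR (TMM), and deposited log2 CPM values with a small count added. The versions of Rsubread and edgeR and the strand setting were not stated in the labels or methods. The deposited log2 values were used as the response, and CPM in the text is the back-transformed value less the added 0.0313 CPM. Whole reads were recovered from the steps between values (at least 99.9% of values whole within 0.05 reads in each library), which gave depths of 26693847 to 44524376 reads and scaling factors of 0.878 to 1.11. Depth covers counting error only. No pair of replicates agreed within sampling noise (lowest mean chi-square 2.02 over 42 pairs).

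Genes with at least 0.5 CPM in at least 3 libraries of a fit were tested with limma 3.58.1 in R 4.3.3 (lmFit and eBayes with a mean trend), two-sided, with Benjamini-Hochberg adjustment over all genes tested in a comparison and a threshold of 0.05. All 43 genes passed this filter in every fit. Counts at an unadjusted p under 0.05 are given without the share of all genes below that p. They are therefore not read as particular to these genes. The dose series was fitted over its 12 libraries, other comparisons over the libraries of the groups compared, and differences between responses as interaction terms. Log2 fold changes are on the deposited scale. The limma fit of BPS against vehicle was tested on simulated data with known changes, larger than the median changes with BPS reported here. The joint fit of the dose series and the interaction terms were not simulated. Python 3.11.15 (pandas 2.3.3 with numpy 2.4.6) produced the tables, scipy 1.17.1 the intervals and correlations, and matplotlib 3.10.9 the plots.

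The members and gene lists were chosen with earlier results of these data known. Genes named in a comparison were the up to 8 called members with the smallest adjusted p, called members against the majority direction where 5 or fewer, and members of complexes described together. Levels were named for the 3 highest and 3 lowest genes per length, and up to 4 of the other replication genes by smallest adjusted p. A few further members were named after their values were seen, to complete a role. Promoter sequences came from RefSeq (GRCm38.p6), and exon lengths and overlapping genes from the GENCODE annotation of GRCm38. Alternatives were another scaling (upper quartile, median ratio), no filter, a filter at 5 CPM, 1 CPM added, limma-voom on recovered reads, other sets of libraries in the fit, the share of ribosomal RNA type as a covariate, the replicate number as a block, and each replicate of the groups compared left out. Leaving 1 µM replicate 2, BPS replicate 2 of the second iPSC experiment or Sertoli BPS replicate 1 out of fits they only partly enter was chosen after seeing the data. The same holds for the direct dose tests without 1 µM replicate 2.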

Additional observations from a re-analysis of the deposited data

Results flagged for a closer look

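Differences between cell types in the response to 1 µM BPS were singled out because the test of the difference itself passed. Between Sertoli cells and iPSCs 15 of the 43 genes differed (4.2% of all genes did), with log2 differences of 0.41 (Rrm2), 0.39 (Rfc4), 0.39 (Tipin), 0.36 (Cdc6), 0.36 (Mcm2), 0.35 (Rfc5), 0.34 (Rpa2), 0.32 (Mcm5), 0.31 (Pola1), 0.28 (Mcm3), 0.27 (Pold1), 0.25 (Mcm6), 0.25 (Lig1), 0.24 (Rrm1) and 0.22 (Rfc1). Each was higher in Sertoli cells.

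Between granulosa cells and iPSCs 2 genes differed (1.37% of all genes), Ccne1 by 0.33 and Cdc6 by 0.31. Between PGCLCs and iPSCs 4 of the 43 genes differed, a share below the 13.4% of all genes that did, Ccne1 by 0.24, Rrm1 by 0.20, Rrm2 by 0.18 and E2f1 by -0.21. Between Sertoli and granulosa cells 3 genes differed (1.28% of all genes), Lig1 by 0.24, Rrm2 by 0.23 and Chaf1a by 0.23. The comparisons with iPSCs share the same 6 iPSC libraries, and cell type and experiment cannot be told apart. For PGCLCs the time from exposure to collection and the culture vessel differed as well.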

How the results depend on the processing

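Counts below are of the 43 genes called, in either direction. Each library of the groups compared was left out in turn, and 1 µM replicate 2 also from the 50 and 100 µM fits. The other libraries of the dose series, which share the error of these fits, were not left out. The counts then ran from 0 to 10 at 1 µM in iPSCs, 11 to 26 at 50 µM, 17 to 32 at 100 µM, 1 to 22 in Sertoli cells, 7 to 14 in PGCLCs and 0 to 6 in the second iPSC experiment. Over the same fits, in that order, calls in the whole table ran from 602 to 2134, 2449 to 5537, 3322 to 6169, 43 to 1239, 3053 to 5091 and 0 to 1484. For differences between responses, only iPSC 1 µM replicate 2, BPS replicate 2 of the second iPSC experiment or Sertoli BPS replicate 1 was left out. The counts ran from 5 to 34 for Sertoli cells against iPSCs, and were 9 for granulosa cells and 13 for PGCLCs. They were 0 for Sertoli against granulosa cells, between the iPSC experiments and for derived PGCLCs against their iPSCs. One fit of all 42 libraries gave 8 in Sertoli cells, 3 in PGCLCs, 5 in the second iPSC experiment and 2 in derived PGCLCs. For differences between responses that fit gave 0 for granulosa cells and 1 for PGCLCs against iPSCs, 1 for Sertoli against granulosa cells and 2 for derived PGCLCs against their iPSCs. Fitting the 6 libraries compared alone gave 23 at 50 µM and 36 at 100 µM. Upper-quartile rescaling gave 19 in PGCLCs, 8 for Sertoli cells against iPSCs, 1 for PGCLCs against iPSCs and 18 at 100 µM. Over all settings no called result turned direction, and 203 values for single genes no longer passed the threshold. The cause was not tested.

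With the replicate number as a block (replicate block) the counts were 3, 15 and 25 at 1, 50 and 100 µM in iPSCs, 25 for Sertoli cells, 12 for PGCLCs and 0 in the other 3 comparisons. Same-numbered libraries did not deviate together in any comparison as a whole (r from -0.56 to 0.31), so the numbers were not read as pairs. Counting error was widest for Cdc45, whose lowest value stood on 35 reads, and each group had 3 libraries, so genes not called cannot be taken as unchanged.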
